A study of Homo sapiens with 8 samples.

Results

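NEAT1, MALAT1, XACT, NORAD, TUG1, PVT1, GAS5, SNHG1, MEG3 and H19 are long noncoding RNAs, transcripts that act as RNA and are not known mainly for a protein product. They were taken from a list of N6-methyladenosine (m6A) peaks by their gene name, and every row under 1 of these names was kept. The names were selected on what was already known of the list, namely the fold enrichment, number and support of their peaks, so these values are descriptions and carry no test. The list held 80 rows under 8 of the 10 names, against 42272 rows under 16701 gene names in all. GAS5 and SNHG1 had no row.

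m6A is a methyl mark placed on adenosines of RNA in the nucleus by a complex that contains METTL3 and METTL14, and it is removed by demethylases and bound by reader proteins. HNRNPC is a nuclear RNA-binding protein that has been described as reaching its sites more readily where m6A loosens the RNA structure around them, and MALAT1 is a classic substrate for this. Long noncoding RNAs carry the mark too, and in several of them it has been studied as part of their function, for example in the silencing of the X chromosome by XIST.

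The libraries were made from U251, an established human glioblastoma cell line, transfected with si-HNRNPC, a small interfering RNA against HNRNPC, or with si-NC, its negative control. The labels name 8 libraries in 4 groups of 2, namely si-HNRNPC input, si-HNRNPC 48 h, si-NC input and si-NC 48 h, and they do not say whether the 48 h libraries are immunoprecipitates. In MeRIP-seq, fragments of poly(A) RNA bound by an antibody against m6A are set against unselected input RNA, and a peak is a stretch that is richer in the bound fraction. The peak list is titled as siRNA immunoprecipitate against siRNA input, without saying which siRNA, and no column names a transfection or holds a value per library, so si-HNRNPC was not compared with si-NC here, no spread between replicates could be given, and the depth is unknown. A peak list gives no level of a transcript either, and of the markers checked, 9 of 10 for astrocytic glioma cells, 3 of 4 for neurons and 1 of 3 for immune cells had a row.

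Each row gives exon blocks, a fold enrichment (the immunoprecipitate over the input, a linear ratio computed by the authors), the log10 of a p-value and the log10 of its false discovery rate (FDR). A more negative log10 value means stronger support. Over the 80 rows of the long noncoding RNAs the median fold was 7.63 and the median row covered 436 bases. The medians of the whole list were lower, 5.45 for the fold (first quartile 2.75, last quartile 8.71) and 405 bases. XACT gave 46 of the 80 rows, and without it the median fold was 6.10. Since the names were selected on fold among other values, this is no contrast with the whole list. Peaks of 1 RNA share a transcript and are no replicates of each other. Positions match GRCh38: of 14248 gene names found on the same chromosome in the RefSeq table of GRCh38.p14, 61.4% had a listed start or end identical to the RefSeq one and 99.8% overlapped it.

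Bases under the peaks could be shown where a RefSeq window around a transcription start (GRCh38.p14, 250 bases before to 50 after the start) lay under a row of the same RNA. The stretches below were picked because they hold DRACH, the letters around most mapped m6A sites (D is A, G or T; R is A or G; H is A, C or T), and the capitals mark each DRACH that is complete within the stretch. Both MALAT1 stretches lie inside the broad peak that begins 997 bases from the 5′ end of the gene. The NORAD stretch lies at the 5′ end of its single peak, and its marked DRACH is upstream of the RefSeq start at 36050960. The H19 stretches lie in the outermost block of its stronger peak, also upstream of the RefSeq start.
MALAT1, chr11:65498905-65498934, plus strand: tctagaaaagtaAAACTaGAACCtattttt
MALAT1, chr11:65498922-65498951, plus strand: aGAACCtattttTAACCgaaGAACTacttt
NORAD, chr20:36050956-36050985, minus strand: tgccagcgcagaGAACTgccaagtcagttc
H19, chr11:2001405-2001434, minus strand: gcactgaagctgGGACAggagagcagagac
H19, chr11:2001350-2001379, minus strand: ctgaggtgatcaTGACTgGGACCcaaggac
H19, chr11:2001336-2001365, minus strand: actgGGACCcaaGGACTcaagcgcatgctc
The MALAT1 window lay wholly under the peak and its 300 bases held 4 DRACH on the RNA strand and 7 on the opposite strand, against a median of 4 on the gene's strand over 35116 RefSeq windows of the same length, of which 97.2% held at least 1. The 253 bases of H19 under the row held 7 DRACH on the RNA strand and 4 on the opposite strand, where the same stretch of the other windows had a median of 4 and 95.2% held 1 or more. All 7 on the RNA strand lay upstream of the annotated H19 start at 2001266, and every compared window lies mostly before its own RefSeq start. GGAC, the core of the most common form, stood 4 times in the H19 bases and not in the MALAT1 or the NORAD bases on the RNA strand. It was present in 60.9% of the windows over the stretch used for H19, 66.3% over that for MALAT1 and 34.6% over that for NORAD. The 108 bases of NORAD held 1 DRACH on the RNA strand and 3 on the opposite strand, and 74.7% of windows held 1 or more there. In TUG1 the 70 bases under its first row held 1 DRACH and 2 GGAC on the RNA strand (60.4% and 24.6% of windows), and in MEG3 the 84 bases under its first row held neither (66.8% and 28.4% of windows). These are letters in a window and not mapped methylation sites, and the window shares show that DRACH is present in most stretches of this length.

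The 10 RNAs differed widely in how many peaks they carried. XACT, an RNA of the X chromosome that coats active X chromosomes in human pluripotent cells, had 46 rows, more than the other members together (34 rows). PVT1, a neighbour of the MYC gene, had 11 rows, and MEG3, an imprinted RNA expressed from the maternal chromosome, had 9. NEAT1, the scaffold of nuclear paraspeckles, and TUG1, an RNA first described in the retina of the mouse, had 4 rows each. MALAT1, an abundant RNA of nuclear speckles, had 3, H19, an imprinted RNA and the host of miR-675, had 2, and NORAD, a cytoplasmic RNA that binds PUMILIO proteins, had 1. GAS5 and SNHG1 are hosts of small nucleolar RNAs, and neither had a row. The median gene name in the list had 2 rows.

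**Figure D1:**
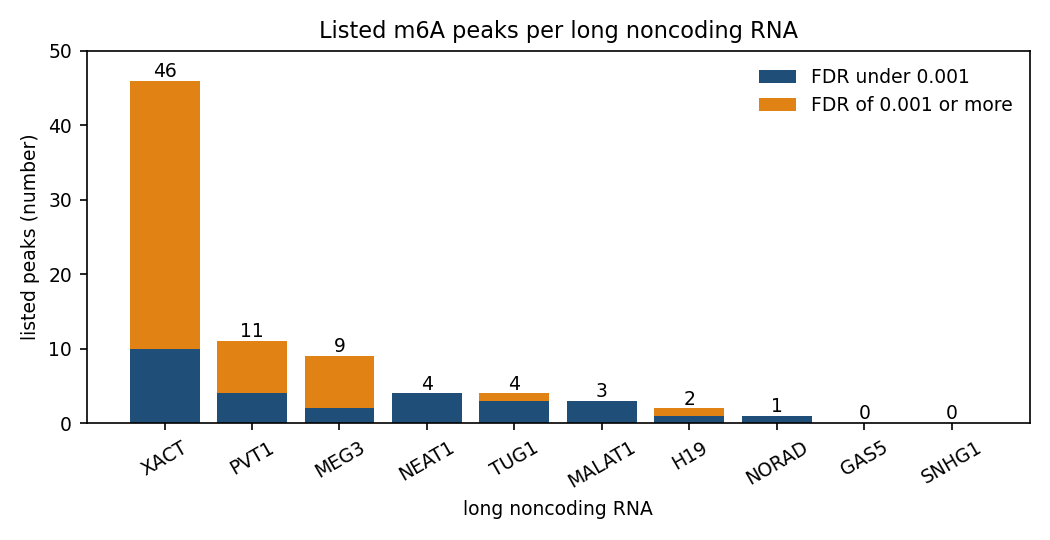
Number of listed m6A peaks (y axis) for each of the 10 long noncoding RNAs (x axis), split by an FDR under 0.001 (blue) and an FDR of 0.001 or more (orange). XACT stands highest with 46 peaks, of which 10 are blue, while all peaks of NEAT1, MALAT1 and NORAD are blue.

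Support was spread in another way than the number of peaks. At an FDR under 0.001, 28 of the 80 rows remained (35.0%), against a background of 62.0% of all listed peaks. All 4 rows of NEAT1, all 3 of MALAT1 and the 1 row of NORAD had an FDR under 0.001, as did 3 of 4 in TUG1, 4 of 11 in PVT1, 1 of 2 in H19, 2 of 9 in MEG3 and 10 of 46 in XACT. Without XACT, 18 of 34 rows had it. Each of the 8 RNAs with a row had at least 1 such peak, where 76.7% of all gene names did. At an FDR under 0.05 the number was 55 of 80, with 26 of 46 in XACT and 6 of 9 in MEG3. The share of all listed peaks at that limit was not taken, so whether these counts are high or low is not known.

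NEAT1 (ENSG00000245532) had the highest fold of the group by a wide margin. The gene runs over chr11:65422774-65445540 on the plus strand, and its 4 rows described 2 places, each listed in duplicate with nearly the same ends. The first place, the 5′ end of the RNA, was listed from 65422774 to 65425436 with a fold enrichment of 263 and a log10 p of -13600, and again from 65422798 to 65425435 with a fold of 239 and a log10 p of -14000. The second was listed from 65425884 to 65426543 and again from 65425885 to 65426513, and both rows had a fold of 3.88 and a log10 p of -1270. The fold at the first place was 67.8 and 61.6 times that at the second, while both were supported far beyond the median of the list, a log10 p of -6.11. Among all rows, the NEAT1 fold of 263 ranked 8 from the top and its lowest p ranked 3.

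The NEAT1 rows together covered 3323 distinct bases, 14.6% of the 22767 bases of the annotated gene. The last covered base lay 3770 bases from the 5′ end, and the remaining 18997 bases of the long form of NEAT1, the form that builds paraspeckles, held no row under any name. Both places thus fell in the first 16.6% of the gene, roughly the stretch that the short and the long form share. Since the rows give no level, it cannot be told from them how much input RNA lay over the uncovered part. The libraries were made from poly(A) RNA, and what this selection kept of that part was not tested.

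MALAT1 (ENSG00000251562), whose annotated gene is chr11:65497738-65506516 on the plus strand, had 3 separate peaks. The longest, from 65498735 to 65501279, covered 2545 bases with a fold of 5.45, the same as the median of all listed peaks, but with a log10 p of -3770, the 36th lowest of all rows. A short peak of 181 bases from 65501698 to 65501878 had the lowest fold of all member rows, 1.35, and a log10 p of -16.3. The third, from 65502446 to 65503105, covered 660 bases with a fold of 12.5 and a log10 p of -415. In MALAT1 the peak with the highest fold was therefore not the one with the lowest p. The 3 peaks covered 38.6% of the gene and ended 5368 bases from its 5′ end, so the 3411 bases at the 3′ end, which include the triple helix that protects the RNA from decay, held no row.

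NORAD (ENSG00000260032) had a single peak at the 5′ end of its annotated exon, from 36049586 to 36051018 on the minus strand of chromosome 20. It covered 1433 bases, or 26.5% of the 5401 bases of the gene, with a fold of 9.02 and a log10 p of -926. The other 3968 bases, which make up the 3′ part of the RNA, held no row. As with NEAT1, the amount of input RNA over the uncovered parts of MALAT1 and NORAD is unknown.

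TUG1 (ENSG00000253352) is listed with untranslated regions, and RefSeq gives it the biotype protein_coding, unlike the other 9 RNAs. Its gene runs over chr22:30969245-30979395 on the plus strand. The row at the 5′ end, from 30969245 to 30970233, had a fold of 17.1 and a log10 p of -41.3. The next, from 30970503 to 30971940, had a lower fold of 8.45 and stronger support, a log10 p of -329. The other two rows, of 145 and 87 bases, lay inside that second peak with folds of 2.81 and 2.63.

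Several stretches of these RNAs were also listed under other gene names. In TUG1, 6 further rows were assigned to AC004542, 3 on the plus strand and 3 on the minus strand, although all lie inside TUG1. The longest of them, from 30975173 to 30979335, covered 4163 bases with a fold of 10.4 and a log10 p of -657, and the one from 30972718 to 30973736 had 7.62 and -566. With these rows 74.96% of TUG1 was covered, against 23.9% by the rows that carry its own name, and covered bases reached to 60 bases from its 3′ end, through the minus-strand rows, while the rows named TUG1 ended 2696 bases from its 5′ end. Whether the minus-strand rows come from TUG1 or from a transcript of the opposite strand cannot be told apart from the list. In NEAT1, 3 short rows named AP000944 lay inside the first peak, with folds of 1.90, 3.31 and 5.01 and log10 p of -78.5, -159 and -2030. In MALAT1, 1 row of 95 bases named AP000769 lay inside the third peak with a fold of 1.99 and a log10 p of -21.5. The exon these AP000944 and AP000769 rows name belongs to NEAT1 or MALAT1.

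Most rows nested in a longer one had a lower fold than the row around them, by very different amounts. At NEAT1, the enclosing row of 263 was 138, 79.5 and 52.5 times the folds of the 3 rows inside it. At MALAT1 the enclosing fold was 6.28 times the inner one, and within TUG1's own second row 3.01 and 3.21 times. Among the AC004542 rows it was 1.29 to 4.76 times, and at the second place of NEAT1 both rows had the same fold. Over the spans of all 10 RNAs, 13 rows lay wholly inside another row, and 12 of them had a lower fold than every row that enclosed them. In the whole list 1119 rows lay inside another on the same strand and 58.2% of these had the lower fold. The 13 rows come only from NEAT1, MALAT1, TUG1 and PVT1, which were selected on the fold and support of their peaks. Their count is therefore no contrast with the whole list. In NEAT1, the 120 bases from 65423273 to 65423392 thus stand under folds of 1.90, 239 and 263 in different rows.

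**Figure D2:**
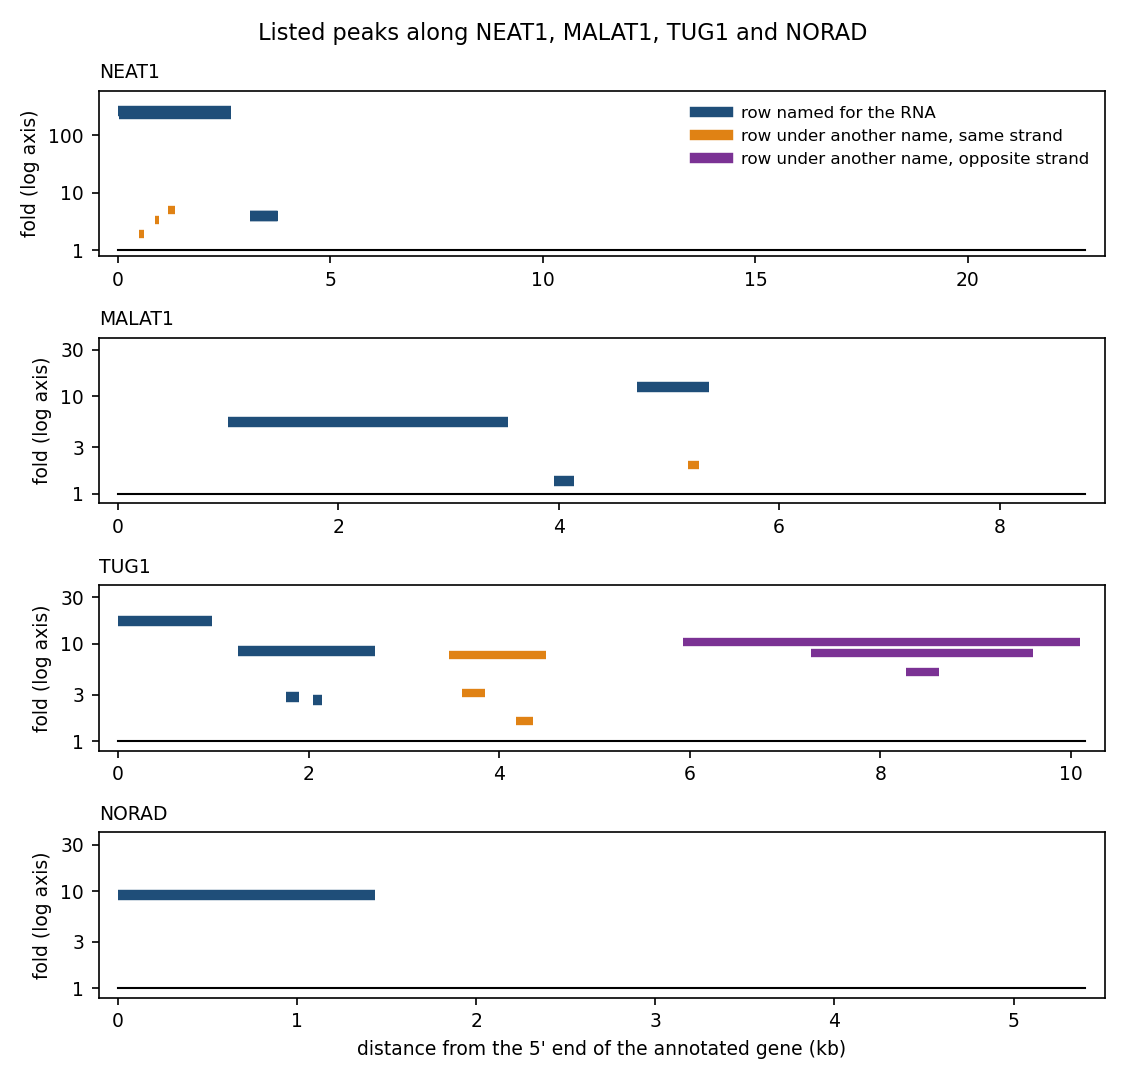
Listed peaks along NEAT1, MALAT1, TUG1 and NORAD, with the distance from the 5′ end of the annotated gene in kb on each x axis and the fold enrichment over input on each y axis (log axis). Each bar runs from a row's first to its last base, blue for rows named for the RNA, orange for rows under another name on the same strand and purple for rows under another name on the opposite strand; the black line is the gene. NEAT1, MALAT1 and NORAD hold no row in the 18997, 3411 and 3968 bases at their 3′ ends. The rows named TUG1 end 2696 bases from its 5′ end, and the rows that reach to 60 bases from its 3′ end are minus-strand rows under another name.

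XACT (ENSG00000241743) was listed over chrX:113616300-113991976 on the minus strand, a span of 375.7 kb, of which RefSeq annotates only the stretch from 113616300 to 113618153 at the 3′ end. No row lay in that stretch, and the 6780 bases at the 3′ end of the span were uncovered. Of the 46 XACT rows, 45 lay in exon 2 of 2, and the 1 in exon 1 had a fold of 1.91, the lowest for XACT. The folds ran to 26.1, with a median of 8.71. The rows covered 30735 bases, or 8.18% of the span, with 151 to 2701 bases in each. With rows less than 5 kb apart put together, they formed 14 clusters, and the widest stretch without a row was 67.3 kb.

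The highest XACT folds lay in different clusters. The row from 113729608 to 113731048 had a fold of 26.1 and a log10 p of -7.74, and that from 113857885 to 113859325 had 24.0 and -7.47. The row from 113817866 to 113820566, the longest, had 20.7 and -5.05, and that from 113623680 to 113624550 had 18.5 and -4.45. The cluster from 127.5 to 134.1 kb held 8 rows, 3 of them with an FDR under 0.001. The cluster from 291.4 to 300.1 kb held 7 rows with folds of 6.54 to 14.2, and none of them had an FDR under 0.001.

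**Figure D3:**
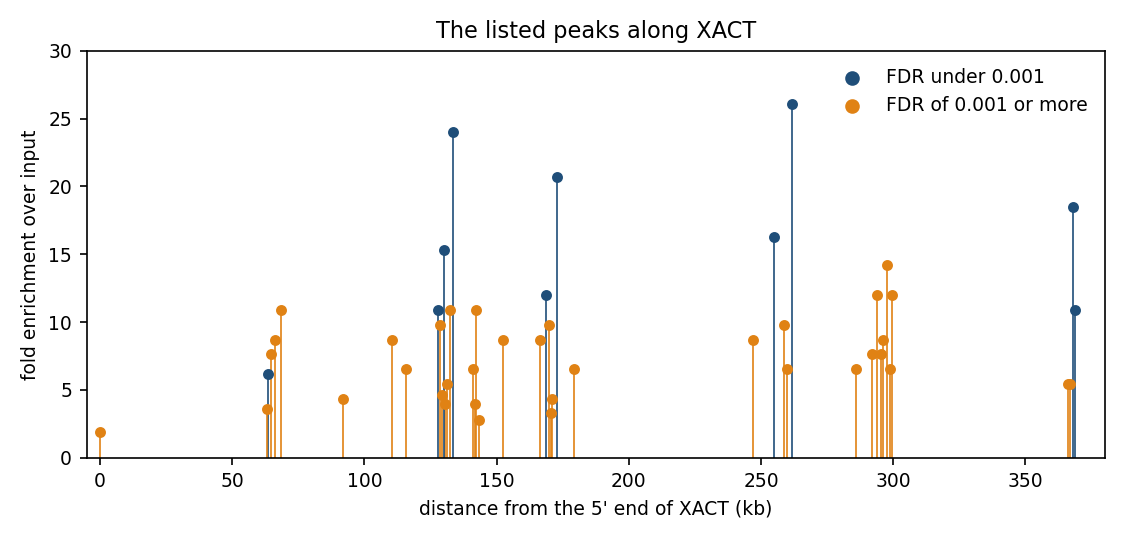
Fold enrichment over input (y axis) of the 46 XACT peaks against their distance from the 5′ end of XACT in kb (x axis), with peaks at an FDR under 0.001 in blue and the others in orange. The peaks stand in clusters with stretches of up to 67.3 kb between them, and the highest reach 26.1 and 24.0.

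Fold and FDR rest on the same enrichment, so splitting the XACT rows by FDR partly splits them by fold, and this is only a description. The XACT rows with an FDR under 0.001 were both higher and longer than its other rows. Their folds ran from 6.17 to 26.1 with a median of 15.8 and they covered a median of 856 bases, against a median fold of 7.08 and 391 bases for the other 36. Even so, their log10 p lay only between -7.74 and -3.73, so the best-supported XACT row stood behind every row of NEAT1, MALAT1 and NORAD. Across the 46 rows, fold and covered bases had a Spearman rho of 0.68, which is a description, since the rows share a transcript and the fold enters their detection. Of the 8 gene names with 20 or more rows, XACT had the lowest share at an FDR under 0.001, 21.7%, where the median was 55.0%. The next lowest were other long noncoding RNAs, at 32.1%, 39.1% and, for the X-linked JPX, 45.0%. The remaining names ran from 65.0% to 83.1%, so a low share was not particular to XACT.

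Many XACT rows had values that recur throughout the list. A fold of 8.71 with a log10 p of -1.85 stood in 790 rows of the list, 5 of them XACT rows, and 6.54 with -1.31 stood in 1502 rows, 4 of them XACT rows. Among pairs of fold and log10 p found in at least 100 rows, 11 had folds of 6.54 to 17.4, and neighbours in that series differed by 1 to 1.1. In all, 25 of the 80 member rows held such a repeated pair, against 14.6% of all listed peaks. They were 19 rows of XACT, 4 of MEG3, 1 of H19 and 1 of PVT1, and none of NEAT1, MALAT1, NORAD or TUG1. This count and its limit of 100 rows were chosen after the pairs were seen. By the same count, the other gene names with 20 or more rows ranged from 11 of 28 rows, in a long noncoding RNA, to 0 of 20 in JPX. Of the 46 XACT rows, which are single blocks, 45 had a width of 1 base more than a multiple of 30 bases, as 34.1% of the single-block rows in the list did, so their edges are given to about 30 bases.

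**Figure D4:**
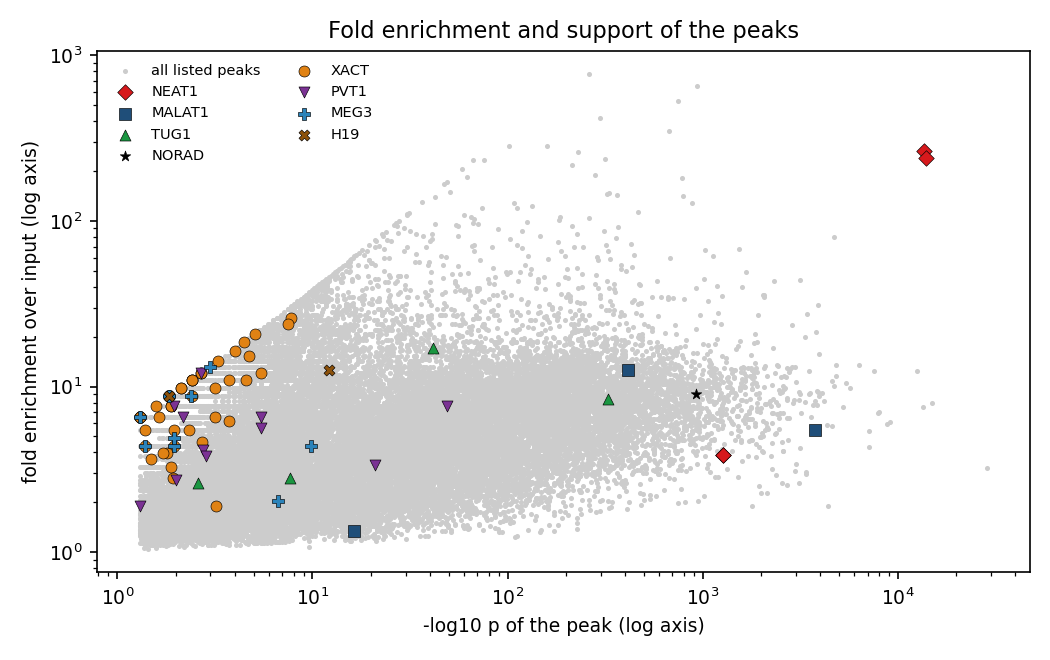
Fold enrichment over input (y axis, log axis) against -log10 p (x axis, log axis), with each distinct pair of values in the list in grey and the rows of 8 long noncoding RNAs as coloured symbols. The NEAT1 rows at 263 and 239 stand apart at the right, and most XACT, MEG3 and PVT1 rows lie at the left, where support is weakest.

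PVT1 (ENSG00000249859) spread its 11 rows over a listed span of 392578 bases on chromosome 8, plus strand, and covered 5320 distinct bases, 1.36% of it. Folds ran from 1.91 to 12.0 with a median of 5.66. The best-supported row, from 127854895 to 127890966, joined 5 exon blocks of 1711 bases in all, with a fold of 7.63 and a log10 p of -49.0. The row near RefSeq's 3′ end of the gene, from 128099866 to 128101225, came next in support (log10 p -20.9), although its fold was 3.38. The highest fold, 12.0, came from a 3-block row with a log10 p of -2.69, a pair that 372 rows of the list share. In PVT1 the row with the most support was thus not the one with the highest fold.

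The imprinted RNAs MEG3 and H19 had few well-supported rows. MEG3 (ENSG00000214548, chr14:100779410-100861026, plus strand) had folds of 2.04 to 13.1 with a median of 4.90, and only its first and last rows had an FDR under 0.001. The first, from 100779410 to 100828759, joined 4 blocks with a fold of 2.04 and a log10 p of -6.65. It began upstream of the RefSeq start of MEG3 at 100826108. The last, from 100860038 to 100861001, had a fold of 4.36 and a log10 p of -9.88. The other 7 rows lay between 100845894 and 100852277, all in the exon listed as 7 of 7, with log10 p of -2.98 to -1.31, and the highest MEG3 fold, 13.1, was among them. The hairpin of MIR770, which MEG3 hosts, lay 113 bases from the nearest of these rows. That row had the weakest support in MEG3, a fold of 6.54 with a log10 p of -1.31. Its FDR was not under 0.05, and 1502 rows of the list share its pair of values.

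H19 (ENSG00000130600), on the minus strand of chromosome 11, had a row at each end. The row at the 5′ end, from 1997561 to 2001470 in 2 blocks covering 568 bases, had a fold of 12.5 and a log10 p of -12.2 and reached 204 bases beyond the annotated start at 2001266. The row at the 3′ end, from 1995176 to 1995355, had a fold of 8.71 and a log10 p of -1.85, the pair found in 790 rows. The hairpin of MIR675 lay between them, 730 bases from the nearer row.

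GAS5 (chr1:173863901-173869045, minus strand) and SNHG1 (chr11:62851978-62855885, minus strand) had no row by name. By position, 1 row overlapped GAS5, that of ZBTB37, a gene on the opposite strand. It ran from 173868361 to 173885675 in 5 blocks with a fold of 5.99 and a log10 p of -41.4, and 166 of its bases lay inside GAS5. No row of any name overlapped SNHG1. A missing row does not show that the RNA is unmethylated, since neither its level in the input nor the depth is known.

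**Figure D5:**
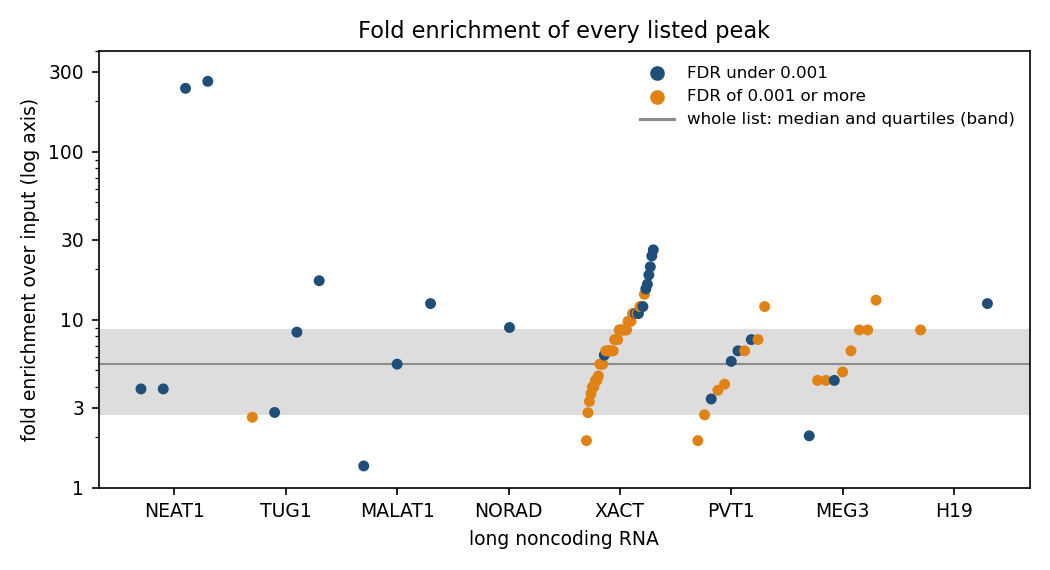
Fold enrichment over input (y axis, log axis) of every listed peak of the 8 long noncoding RNAs with a row (x axis), blue at an FDR under 0.001 and orange otherwise, with the median (line) and quartiles (band) of the whole list. A single place in NEAT1 stands at 263 and 239, while no other peak of these RNAs exceeds 26.1.

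Among 90 other named long noncoding RNAs, 53 had a row, with 182 rows in all. Of these rows, 95 had an FDR under 0.001 (52.2%), against 35.0% for the 10 RNAs described here and the 62.0% of all listed peaks. The median of the highest fold per gene was 12.8 for the 8 members with a row, 9.80 for the 53 other RNAs and 8.31 for all gene names. The members were selected on fold and number of peaks, and the highest fold of a gene can rise with its number of rows. This order is therefore no contrast between the groups. The snoRNA hosts, the class of GAS5 and SNHG1, had a row for 14 of 27 genes, and 11 of these 14 had a peak with an FDR under 0.001. Of all gene names in the list, 76.7% had such a peak. The other X-chromosome RNAs had a row for 4 of 4, and their 31 rows included 12 at an FDR under 0.001. Of 8 other imprinted RNAs, 3 had a row. The list names only genes with a row, so no share over all annotated genes stands beside these counts of genes. Whether they are high or low is not known.

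The highest folds among these other RNAs were 44.7 for DGCR5, 38.1 for PCAT1, 31.8 for SNHG29 and 31.6 for DLEU1. All were above every value of the 10 RNAs except the 263 and 239 of NEAT1. JPX, an X-linked RNA that activates XIST, had the most rows, 20, followed by MIR4435-2HG with 13 and DLEU1 with 9. In SNHG29 the peak with the highest fold was also the best supported, with a log10 p of -247, while in DLEU1 the best-supported peak had a fold of 8.93 and a log10 p of -31.7.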

How the data were processed

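Fragmented poly(A) RNA of U251 cells was enriched with an antibody against m6A and sequenced as strand-marked libraries. Per the submitters' notes on processing, fastp and HISAT2 were run, in versions that are not stated. The peak caller, its threshold and the build remain not given in the sources used here. A deposited list was analysed that has 42272 rows and 24 columns, with no column per library (0 were left unused), so pooling of replicates is unknown. Its fold enrichment is the authors' linear ratio to input, with its scaling not stated. The p-value, at most 0.05, and the log10 scores of p and FDR per peak are also deposited values. No value of the list was rescaled and no test was run.

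From these, rows were selected by gene name, covered bases summed over exon blocks, and distances taken from the 5′ end of the listed and RefSeq gene bounds together. RefSeq synonyms were used to match the 7 lists of other RNAs. The members and lists were chosen with earlier results of these data known. Named genes were the 10 RNAs, genes sharing bases with them, and at most 4 by fold and 4 by rows from the lists. DRACH was counted only in RefSeq windows, as no genome was used here. The interval code was tested on simulated blocks. Python 3.11.15, pandas 2.3.3, NumPy 2.4.6, SciPy 1.17.1 and matplotlib 3.10.9 were used. Alternatives were an FDR or fold minimum, merged rows, rows by position, other measures of covered bases, fold and position, and GGAC in place of DRACH.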

Additional observations from a re-analysis of the deposited data

How the results depend on the processing

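The number of peaks of the 10 RNAs depended most on the FDR. The 80 rows became 28 at an FDR under 0.001, and 75, 77 and 87 when overlapping rows were merged, a fold of at least 2 was asked for or rows were taken by position on the same strand. The 28 became 55 at an FDR under 0.05. The median fold of 7.63 was 6.10 without XACT, 7.63 without NEAT1, 9.96 at an FDR under 0.001 and 12.8 with 1 peak, the highest, per RNA. The 25 rows with a repeated pair became 38 with pairs found in at least 20 rows, and both limits were chosen after the data were seen. No share over all listed peaks was taken at an FDR under 0.05 or at the limit of 20 rows. Merging left NEAT1 with 2 peaks of 4 and TUG1 with 2 of 4, and counting either strand by position, also added later, gave TUG1 10. The genomic span in place of exon blocks moved the covered bases of PVT1 to 83160, MEG3 to 52059 and H19 to 4090, and the median position of the peaks stayed within 5 percentage points for all 8 RNAs. At the peak with the lowest p, the fold of MEG3 was 4.36, PVT1 7.63, TUG1 8.45, MALAT1 5.45 and NEAT1 239. No paired analysis was possible because no column of the list belongs to a single library. For the same reason neither depth nor a replicate error stands behind any value, and no replicate could be left out.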
